A study of Homo sapiens with 12 samples.

Results

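ARID5A, the gene carried by the transfected plasmid, and its paralog ARID5B, which was not transfected, were followed through all 12 RNA immunoprecipitation libraries of the series. Both were taken by Ensembl identifier, ENSG00000196843.17 for ARID5A and ENSG00000150347.17 for ARID5B, so they are 2 of the 60708 features in the deposited tables. The cells were HK2, an established line of human kidney proximal tubule epithelium. Every culture, controls included, received 10 µg of a plasmid for FLAG-tagged human Arid5a. Cells were then kept for 3 h in medium alone or with IL-17, an inflammatory cytokine, at 200 ng/mL. Precipitation with anti-FLAG, or with mouse IgG1 to measure background, gave the groups IgG medium, FLAG medium, IgG IL-17 and FLAG IL-17 with 3 libraries each. No untransfected cells and no unprecipitated RNA were analysed here. Whether replicates were separate cultures is not stated in the labels; a p-value then reflects only how these libraries vary, which may be technical variation.

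ARID5A and ARID5B belong to the family of proteins with an AT-rich interaction domain, a fold that contacts DNA. ARID5A is also known as an RNA-binding protein that stabilises inflammatory mRNAs such as those of IL6 and STAT3, where it opposes the RNase Regnase-1. ARID5B is known as a chromatin cofactor that brings the histone demethylase PHF2 to its targets. In RefSeq's annotation of GRCh38.p14, ARID5A lies on the plus strand at chr2:96536752-96552638, a span of 15887 bases between NEURL3 and KANSL3, with 7 curated transcripts. ARID5B lies on the plus strand at chr10:61901699-62096944, a span of 195246 bases between CABCOCO1 and RTKN2, with 2 curated transcripts. Counts of ARID5A come from the plasmid, the chromosomal gene or both, and the deposited tables do not separate these. In bulk libraries, fewer cells holding the plasmid and less ARID5A RNA per cell cannot be told apart.

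ARID5A was among the most abundant features of every library, whichever antibody was used. In IgG medium it took 2.48%, 16.2% and 0.694% of all estimated counts in replicates 1, 2 and 3. In FLAG medium its share of counts was 11.9%, 0.497% and 1.01%. Within each of these groups a single library stood far above the other two, and the highest share was 23.3 times the lowest in IgG medium and 23.9 times in FLAG medium. With IL-17 its share of counts was 8.93%, 2.06% and 0.95% in IgG replicates 1, 2 and 3. In FLAG IL-17 the share was 1.2%, 0.416% and 0.52%, the narrowest spread of the 4 groups, with the highest share 2.89 times the lowest. The ranges of all 4 groups overlapped. Group means were 6.45 ± 8.48% (SD, n = 3) in IgG medium, 4.46 ± 6.42% (SD, n = 3) in FLAG medium, 3.98 ± 4.32% (SD, n = 3) in IgG IL-17 and 0.713 ± 0.427% (SD, n = 3) in FLAG IL-17. In 3 of the 4 groups the SD was larger than the mean, so these means do not order the groups. In the shallowest library, IgG medium replicate 1, the exact 95% binomial interval of the share was 2.44% to 2.51%, and in FLAG medium replicate 1 it was 11.8% to 11.9%. Such intervals cover counting error only.

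ARID5A was the most abundant feature by count in IgG medium replicate 2, FLAG medium replicate 1 and IgG IL-17 replicate 1. It exceeded the next feature 7.24-fold, 3-fold and 3.55-fold in these libraries. In the other 9 libraries it ranked from the fourth to the 22nd feature by count, with shares between 0.416% and 2.48%. Per length, on the TPM scale (which sums to 1000000 in each library), ARID5A reached 35831, 12313 and 8202 TPM in the 3 libraries where it led. Its TPM lay between 250.6 and 1396 in the other 9, where it ranked from 95 to 169 among all features.

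ARID5B was a feature of moderate level, detected in every library. In IgG medium it had 20.1, 46.6 and 16 CPM (counts per 1000000 estimated counts) in replicates 1, 2 and 3, and in FLAG medium 41.6, 38.2 and 19.6 CPM. With IL-17 it had 25.5, 29.3 and 13.6 CPM in IgG and 38.3, 26 and 22.1 CPM in FLAG. No group stood apart from the others, and replicate 3 was the lowest library in each group. Replicate numbers are names here and were not shown to pair the samples. Group means were 27.6 ± 16.6 CPM (SD, n = 3) in IgG medium, 33.2 ± 11.8 CPM (SD, n = 3) in FLAG medium, 22.8 ± 8.22 CPM (SD, n = 3) in IgG IL-17 and 28.8 ± 8.46 CPM (SD, n = 3) in FLAG IL-17. From the highest mean the order was FLAG medium, FLAG IL-17, IgG medium and IgG IL-17, and neighbours in it differed by less than the SD of either group. Its precision followed depth: IgG medium replicate 1 held 15 counts of ARID5B, with an exact 95% interval of 11.2 to 33.1 CPM, and FLAG IL-17 replicate 1 held 679 counts, with an interval of 35.5 to 41.3 CPM. ARID5B exceeded between 88% and 94.3% of all features by count in each library.

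**Figure D1:**
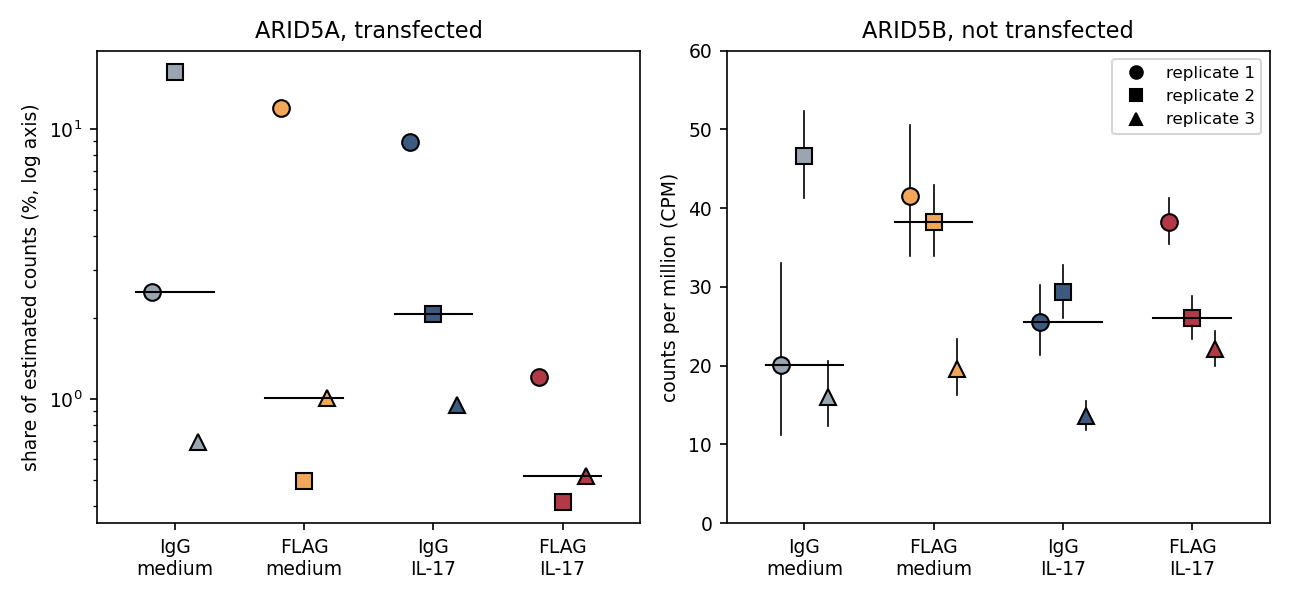
Level of ARID5A (left, share of estimated counts in percent, log axis) and of ARID5B (right, CPM) in each of the 12 libraries, by group. Horizontal bars are group medians, symbols are replicate numbers and vertical lines on the right are exact 95% binomial intervals; a single library with 16.2%, 11.9% or 8.93% ARID5A tops IgG medium, FLAG medium and IgG IL-17, while ARID5B stays between 13.6 and 46.6 CPM.

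The transfected gene varied between replicates far more than its paralog. The pooled SD of log2(CPM + 1) within groups was 1.89 for ARID5A and 0.59 for ARID5B. The median over the 7617 features with a count in all 12 libraries and a mean of at least 5 CPM was 0.73. Of these features, 99.9% had a smaller SD than ARID5A and 31.9% a smaller SD than ARID5B. Among the 85 features with a mean of at least 1000 CPM, the median SD was 0.7 and 98.8% had a smaller SD than ARID5A. ARID5A was thus more variable than nearly all features with a mean of at least 1000 CPM, and ARID5B varied less than a typical feature. The features over 1000 CPM were not matched to the level of ARID5A.

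The 3 libraries led by ARID5A were also those that held the most features. Scaled down to 740000 counts each, the expected number of features with a count was 32398 in IgG IL-17 replicate 1, 25889 in IgG medium replicate 2 and 25373 in FLAG medium replicate 1. The other 9 libraries held between 10594 and 21424. Among those 9 the order was different: IgG medium replicate 1 held the fewest features and had the highest ARID5A share, 2.48%. ARID5B was at 25.5, 46.6 and 41.6 CPM in the 3 feature-rich libraries, which included its highest values in IgG medium and FLAG medium but the middle value in IgG IL-17. With ARID5A left out of the total, ARID5B was at 28, 55.6 and 47.2 CPM in these libraries. Total estimated counts ran from 746911 to 17723136, and the 3 feature-rich libraries held 5365495, 6118339 and 2402395. What sets these 3 libraries apart was not tested. They also hold the 3 highest ARID5A shares, so leaving them out removes the top values of ARID5A itself. An ARID5A value without them is therefore not an independent check of its level.

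**Figure D2:**
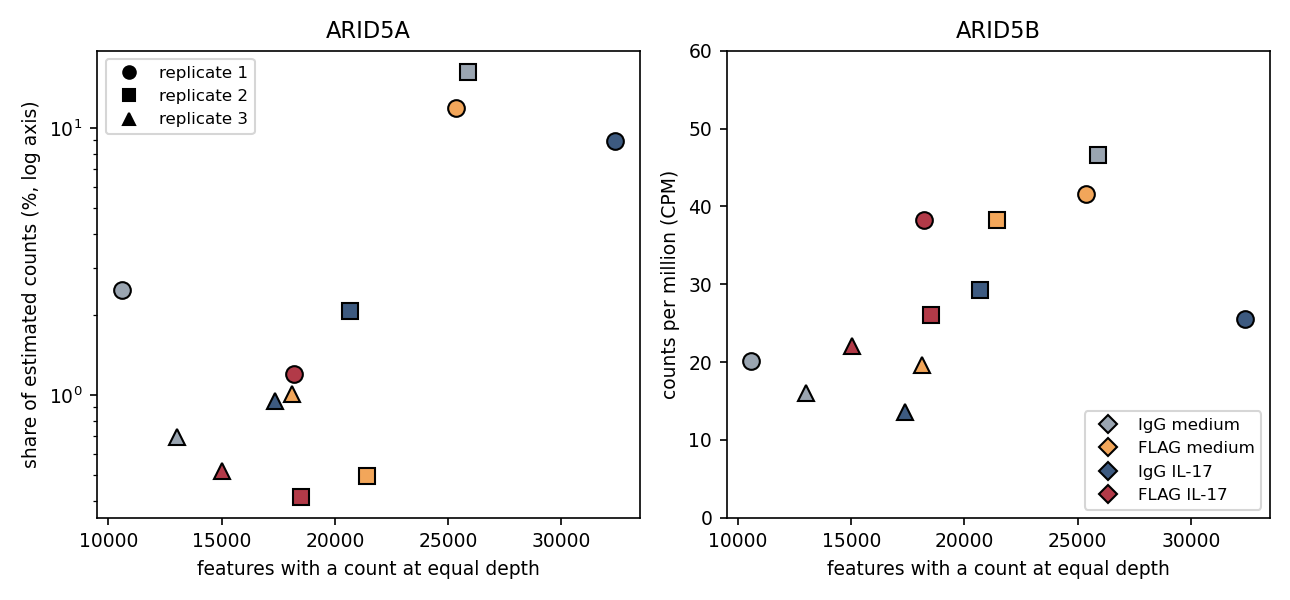
ARID5A share of estimated counts (left, percent, log axis) and ARID5B level (right, CPM) against the number of features with a count expected at an equal depth of 740000 counts, for 12 libraries. Colours are groups and symbols are replicate numbers; the 3 libraries with 25373 features or more hold 8.93% to 16.2% ARID5A, and the other 9 hold at most 2.48%.

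The first comparison asked whether FLAG precipitation recovered more RNA of the tagged protein's own gene than IgG did in medium. It did not do so measurably: ARID5A was 0.59-fold in FLAG relative to IgG, and ARID5B was 0.975-fold. The log2 fold change of ARID5A was -0.76 ± 1.03 (SE, edgeR quasi-likelihood test, adjusted p = 1), with a 95% interval from -2.87 to 1.35. FLAG exceeded IgG in 3 of the 9 pairs of libraries for ARID5A and in 5 of 9 for ARID5B. ARID5B had a log2 difference of -0.04 ± 0.54 (SE, adjusted p = 1 by edgeR), with a 95% interval from -1.15 to 1.08. The libraries of both groups overlapped for both genes, and did not overlap for 5.6% of the 24040 features tested. Neither gene was called at an adjusted p under 0.05 by edgeR, DESeq2 or limma, and neither had an unadjusted p under 0.05 in the main edgeR fit. Over all features edgeR called 0 (0%) at the adjusted and 6.56% at the unadjusted threshold. DESeq2 called 1.32% of features. With limma this was 0% at a pseudocount of 1 TPM and 0.00416% at 0.1 TPM. The direction for ARID5A rested on IgG medium replicate 2, while leaving out other libraries moved its size but not its sign. Its log2 fold change was 0.68 without IgG medium replicate 2, -3 without FLAG medium replicate 1 and -1.67 without the 3 feature-rich libraries, with edgeR adjusted p of 0.701, 0.605 and 0.287.

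With IL-17, ARID5A was again not higher in FLAG than in IgG. Its level was 0.263-fold, a log2 fold change of -1.92 ± 1.06 (SE, edgeR adjusted p = 0.923) with a 95% interval from -4.09 to 0.24. FLAG exceeded IgG in 1 of 9 pairs of libraries, namely FLAG replicate 1 at 1.2% over IgG replicate 3 at 0.95%. ARID5B was 1.51-fold in FLAG, a log2 fold change of 0.6 ± 0.53 (SE, edgeR adjusted p = 0.923) with a 95% interval from -0.5 to 1.69. FLAG exceeded IgG in 6 of 9 pairs for ARID5B. Groups overlapped for both genes, and did not overlap for 15.2% of the features tested. Of all features, edgeR called 0% at an adjusted p and 2.81% at an unadjusted p under 0.05, DESeq2 called 0.026% and limma none with either pseudocount. Neither member was called by any of these tools. In the main edgeR fit ARID5A had an unadjusted p of 0.0795. Other edgeR fits gave 0.0308 with library size only, 0.0207 with only the groups compared, 6.3e-05 with no filter and 0.0512 with RLE factors. DESeq2 gave 0.0315. Adjusted p was 0.905, 0.157, 0.277, 0.842 and 0.91 in the same order. The share of all features under 0.05 in the alternatives was not counted. Without the 3 feature-rich libraries the log2 fold change was -1.14 for ARID5A and 0.4 for ARID5B, both with an edgeR adjusted p of 1. Without IgG IL-17 replicate 1 alone it was -1.12 for ARID5A. IgG IL-17 libraries held 5365495 to 15837845 estimated counts and FLAG IL-17 libraries 13653406 to 17723136. The part of this depth difference in the comparison was not tested.

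Over both treatments, mean log2(CPM + 1) of ARID5A was 13.39 in the 6 FLAG libraries and 14.78 in the 6 IgG libraries. This difference of -1.38 had an exact two-sided permutation p of 0.199, and 0.9 after Benjamini-Hochberg adjustment over 12 such tests (6 comparisons of 2 genes). FLAG exceeded IgG in 9 of the 36 pairs of libraries. Without the 3 feature-rich libraries, which are also the highest in ARID5A, the difference was -1.02 between 5 FLAG and 4 IgG libraries (exact permutation p = 0.0952). For ARID5B the means were 4.94 in FLAG and 4.6 in IgG, a difference of 0.35 (exact permutation p = 0.286, adjusted 0.9), with FLAG higher in 24 of 36 pairs, and 0.53 without the 3 feature-rich libraries (exact permutation p = 0.143). The smallest p that 6 against 6 libraries allow is 0.00216, and 3 against 3 cannot go below 0.1.

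The change of FLAG enrichment with IL-17 was not resolved for either gene. It was -1.16 ± 1.45 for ARID5A (log2 scale, SE, edgeR adjusted p = 0.854) and 0.63 ± 0.76 for ARID5B (edgeR adjusted p = 0.851). The 95% intervals ran from -4.14 to 1.81 and from -0.93 to 2.19. Of all features, edgeR called 0% for this change at an adjusted p under 0.05 and 7.35% at an unadjusted p under 0.05, neither member among them, and DESeq2 called 0.859%. For ARID5A the sign turned without FLAG medium replicate 1, to 1.03, and without the 3 feature-rich libraries, to 0.53; for ARID5B it was 0.24 without those 3. With RLE factors the change for ARID5A was -2.06, with library size only -1.95, with ARID5A left out of the totals -1.8.

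The next comparisons asked whether IL-17 changed the level of either gene within the RNA recovered by each antibody. Depth differed between the treatments. FLAG libraries held 2402395 to 7563477 counts in medium and 13653406 to 17723136 with IL-17, so IL-17 and depth cannot be told apart there. IgG libraries held 746911 to 6118339 counts in medium and 5365495 to 15837845 with IL-17, which overlap only in part. In IgG libraries ARID5A was 0.605-fold with IL-17, a log2 fold change of -0.73 ± 1.02 (SE, edgeR adjusted p = 1) with a 95% interval from -2.83 to 1.38. ARID5B was 0.878-fold, a log2 fold change of -0.19 ± 0.54 (SE, edgeR adjusted p = 1) with a 95% interval from -1.3 to 0.93. The 3 features that edgeR called here, 0.0125% of those tested, did not include either gene, and groups did not overlap for 9.24% of features while they did for both members. At an unadjusted p under 0.05 edgeR listed 5.57% of features and neither member. DESeq2 called 2.12% of features and limma 0.0582% on log2(TPM + 1) and 0.00832% on log2(TPM + 0.1), again neither member. Without IgG medium replicate 2, the log2 fold change of ARID5A became 0.55 and that of ARID5B 0.1. Without the 3 feature-rich libraries these were -0.31 and 0.24.

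In FLAG libraries ARID5A was 0.27-fold with IL-17, a log2 fold change of -1.89 ± 1.05 (SE, edgeR adjusted p = 0.467) with a 95% interval from -4.05 to 0.28. It was 1.36-fold for ARID5B, a log2 fold change of 0.44 ± 0.53 (SE, edgeR adjusted p = 0.685) with a 95% interval from -0.65 to 1.54. In the main fit neither was among the 54 features called, 0.225% of those tested, or among the 10.9% at an unadjusted p under 0.05. DESeq2 called 6.01% of features and limma 0.0333% on log2(TPM + 1) and 0.00832% on log2(TPM + 0.1), neither member among them. Both genes overlapped between groups, and 19% of features did not. The ARID5A value rested on FLAG medium replicate 1: without it the log2 fold change was 0.23 (edgeR adjusted p = 0.954), and without the 3 feature-rich libraries 0.21 (edgeR adjusted p = 0.927), where ARID5B had 0.48. Scaling moved the ARID5A value to -2.94 with RLE factors and to -2.65 with library size only. The unadjusted edgeR p was then 0.0235 and 0.0229, and 0.0303 with ARID5A left out of the totals. By DESeq2 the unadjusted p was 0.00922. None of these passed after adjustment (adjusted p 0.358, 0.446, 0.392 and 0.0825). The share of all features under 0.05 unadjusted in these fits was not counted. With no filter on low counts edgeR gave an adjusted p of 0.00857 for ARID5A, the only call of either gene in any edgeR, DESeq2 or limma fit. That fit had an SE of 0.48 in place of 1.05, and the share of all features called in it was not counted. The direction for ARID5B depended on scaling, being -0.19 with RLE factors and -0.2 with library size only. Relative to the median of all features, which moved from -0.29 with TMM to -0.9 with library size only, ARID5B was 0.74 and 0.7 higher.

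**Figure D3:**
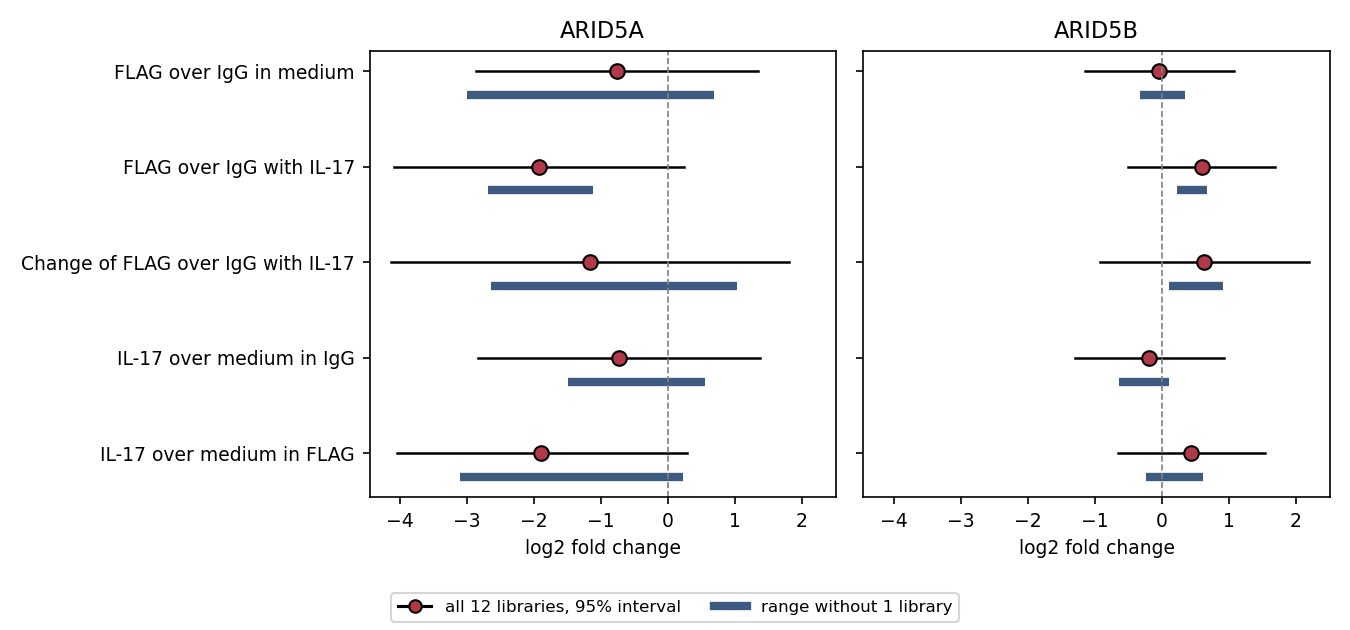
Log2 fold changes of ARID5A (left) and ARID5B (right) in 5 comparisons; points are edgeR estimates from all 12 libraries with 95% intervals, and thick bars are the range of estimates when each library was left out in turn. Every interval includes 0, and the thick bar of ARID5A crosses 0 in each comparison other than FLAG over IgG with IL-17, where it runs from -2.69 to -1.12.

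Per length, ARID5A exceeded ARID5B in every library, by a ratio of TPM between 301 and 14500 with a median of 1800. The ratio was 2330, 14500 and 864 in IgG medium and 6250, 301 and 1460 in FLAG medium, for replicates 1, 2 and 3. With IL-17 it was 9650, 2460 and 2150 in IgG and 1010, 560 and 642 in FLAG. The 3 IgG IL-17 libraries lay above the 3 FLAG IL-17 libraries in this ratio, while both medium groups overlapped. By CPM, 15.2% of the features tested did not overlap between these IL-17 groups, and ARID5A did overlap. How often a ratio to ARID5B separates them was not counted. The ratio is free of library scaling, since both genes come from the same library. It was not tested, and it joins an ARID5B level that rests on as few as 15 counts.

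The TPM scale itself differed between libraries for a given share of counts, with ranges that overlapped between medium and IL-17. For ARID5A, 1 TPM corresponded to 4.52 to 17.7 CPM in medium libraries and to 10.9 to 20.8 CPM with IL-17. For ARID5B it corresponded to 13.4 to 33.5 CPM in medium libraries and to 30 to 59 CPM with IL-17. For both genes the mean difference of IL-17 from medium was lower by TPM than by CPM, as given below. ARID5B had 0.6, 2.47 and 0.9 TPM in IgG medium, 1.97, 2.85 and 0.61 TPM in FLAG medium, 0.85, 0.5 and 0.23 TPM in IgG IL-17, and 0.92, 0.51 and 0.39 TPM in FLAG IL-17. Over both antibodies, mean log2(TPM + 1) of ARID5B was 0.63 with IL-17 and 1.27 in medium, a difference of -0.64 (exact permutation p = 0.0368, not adjusted, a test added after seeing the data). On log2(CPM + 1) the same difference was -0.17 (exact permutation p = 0.608, adjusted 0.9), and 0.14 without the 3 feature-rich libraries. In the TPM test, the share of all features under 0.05 was not counted. For ARID5A, IL-17 and medium differed by -0.87 on log2(CPM + 1) (exact permutation p = 0.429, adjusted 0.9) and by -1.68 on log2(TPM + 1) (exact permutation p = 0.197), with IL-17 higher in 13 of 36 pairs by CPM. Without the 3 feature-rich libraries the ARID5A difference on log2(CPM + 1) was -0.14 (exact permutation p = 0.81). The 10 most abundant features by TPM took 32.6% to 47.2% of all TPM in medium libraries and 36.7% to 59.7% with IL-17. Their part in the TPM difference, and that of depth, was not tested.

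Dividing the estimated count by TPM gives the effective length that the authors' quantification assigned to a gene, up to a factor common to the library. Set against the median of features with at least 20 counts and 0.2 TPM, the relative effective length of ARID5A was 1.09, 0.768 and 0.975 in IgG medium and 0.838, 0.828 and 0.961 in FLAG medium. With IL-17 it was 0.784, 0.935 and 0.971 in IgG and 0.93, 0.828 and 0.901 in FLAG. These lengths spanned a 1.42-fold range, and 2.41-fold (0.697 to 1.68) against features with at least 100 counts, while the TPM of ARID5A ranged over 143-fold. In the 3 libraries led by ARID5A it was 0.768 to 0.838, against 0.828 to 1.09 in the other 9. That gap is not robust to the reference features: taken over the 2658 features measured in all 12 libraries, the 3 libraries had 0.817, 0.996 and 0.816 and IgG medium replicate 1 had 1.1. ARID5B was assigned a longer length, 1.84 to 3.27 times the library median, and between 1.89 and 4.17 times that of ARID5A. All 24 values of the 2 genes' estimated counts were whole numbers at a tolerance of 0, although 18% of the counts above 0 in the table were not.

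**Figure D4:**
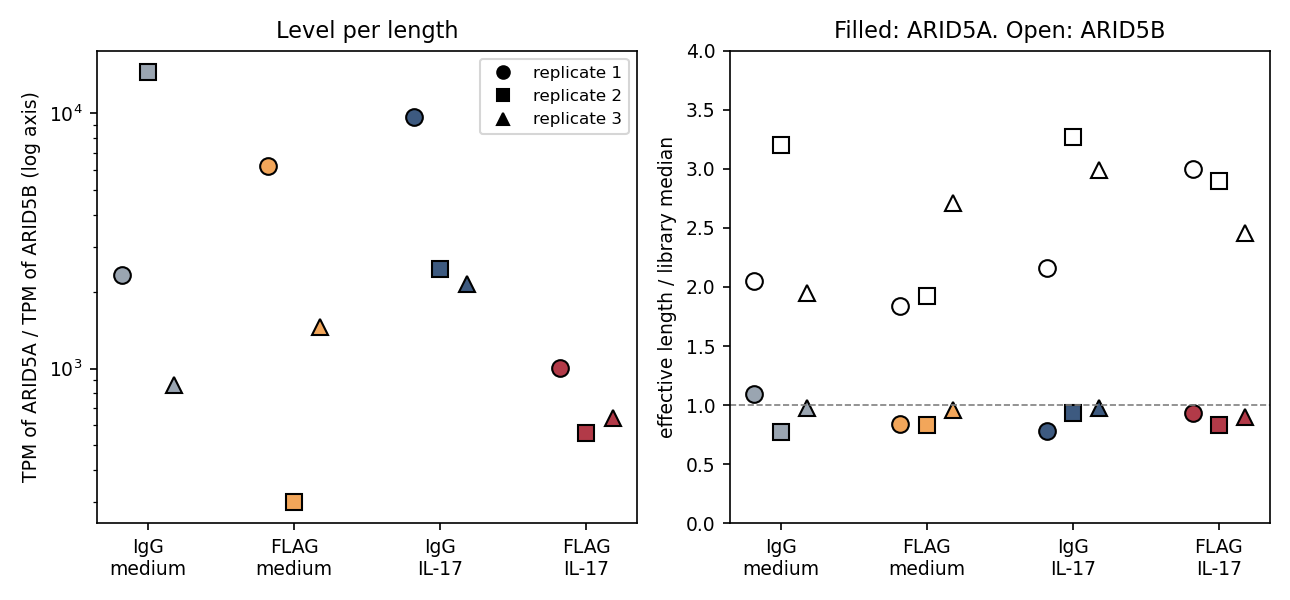
Ratio of ARID5A TPM to ARID5B TPM by library (left, log axis), and relative effective length of both genes (right, filled ARID5A, open ARID5B, dashed line at the library median). The ratio runs from 301 to 14500, while the lengths run from 0.768 to 1.09 for ARID5A and from 1.84 to 3.27 for ARID5B; colours are groups as labelled on the axis and symbols are replicate numbers.

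The likeness of the 2 genes across libraries was not kept without the feature-rich ones. These are also the libraries highest in ARID5A, so leaving them out narrows the range of ARID5A itself. Over 12 libraries their log2(CPM + 1) values had Spearman's rho of 0.41 and Pearson's r of 0.48, and rho was -0.03 over the 9 libraries without the feature-rich ones. As a description, with libraries that differ in depth and content, ARID5B ranked 917 of 7616 features by its likeness to ARID5A in Spearman's rho. The features most like ARID5A were ENSG00000119771.15 and ENSG00000251158.1, both with rho = 0.9 over 12 libraries and 0.82 over the 9. Those most like ARID5B were ENSG00000104447.13 and ENSG00000178307.10, both with rho = 0.9 over 12 libraries and 0.88 and 0.83 over the 9. The median rho over all these features was -0.08 with ARID5A and 0.18 with ARID5B. The deposited tables do not pair these identifiers with gene names.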

How the data were processed

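Estimated counts and TPM per gene were deposited by the authors for 12 libraries. The builds GRCh38 and hg38, R 4.2.0, RSEM 1.3.1, STAR 2.7.9 and DESeq2 1.36.0 appear in the submitters' processing notes, without their roles. Columns of the deposited FPKM table sum to 1000000, so its values were taken as TPM; the tests had been laid out for a length-normalised value without naming TPM. Members and lists were chosen with earlier results of these data known. The reference table held 0 Ensembl identifiers, so the 3 gene lists, with 75 entries, including the ARID family and markers of the cell line, were not used.

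After rounding, counts passed edgeR's filterByExpr at a minimum of 10, were given TMM factors and were tested in 1 model of 4 groups with edgeR 4.0.16 in R 4.3.3, with Benjamini-Hochberg adjustment over 24040 features. Alternatives used DESeq2 1.42.0 and limma 3.58.1 on log2 of TPM with pseudocounts of 1 and 0.1, other scalings and filters, and fewer libraries. The procedure was run on simulated counts that vary less between libraries than these do. That run does not show how often it finds changes in these data. Levels were compared with exact permutation tests on log2(CPM + 1). Total counts ran from 746911 to 17723136; a floor of 3 counts equals 0.169 to 4.02 CPM. Features at equal depth are expected numbers under sampling without replacement. The named genes were the 2 members, plus, for likeness, the 5 features with the highest Spearman's rho, of which at most 2 identifiers are given.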

Additional observations from a re-analysis of the deposited data

How the results depend on the processing

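No result was called in the main fits. ARID5A in FLAG over IgG with IL-17 kept its sign under all 26 alternatives (log2 fold change -2.69 to -1.12, adjusted p 0.157 to 1), as did ARID5B there (0.08 to 0.68). Scaling moved both genes. For ARID5A, FLAG over IgG in medium was -0.36 with RLE factors or DESeq2 in place of -0.76, and IL-17 over medium in FLAG was -2.94 with either in place of -1.89. TMM took FLAG IL-17 replicate 2 as its reference library, and IgG medium replicate 3 when ARID5A was left out of the totals. In FLAG over IgG in medium (-0.04), ARID5B became 0.06 with RLE factors, 0.25 with library size only, 0.05 with ARID5A left out, 0.01 with no filter, 0.04 with at least 50 counts in 3 libraries, 0.16 with only the groups compared, 0.07 with DESeq2, 0.27 and 0.42 with limma on log2(TPM + 1) and log2(TPM + 0.1), and 0.16 without the 3 feature-rich libraries. For IL-17 over medium in FLAG (0.44) these were, for ARID5B, -0.19 with RLE factors, -0.2 with library size only, -0.02 with ARID5A left out, -0.04 with at least 50 counts, -0.18 with DESeq2, and -0.73 and -1.28 with limma. The change of FLAG over IgG with IL-17 in ARID5B (0.63) was -0.19 with limma at either pseudocount. Without the 3 feature-rich libraries, IL-17 over medium in IgG was 0.24 for ARID5B, and ARID5A turned to 0.53 for the change and to 0.21 for IL-17 over medium in FLAG. These are also the 3 libraries with the highest ARID5A share. With no filter, ARID5A was called for IL-17 over medium in FLAG, at -2.04, and the share of all features called in that fit was not counted. Over both antibodies, ARID5B with IL-17 differed by -0.64 on log2(TPM + 1) (exact permutation p = 0.0368, not adjusted). That test was added after seeing the data, and the share of all features under 0.05 in it was not counted. On log2(CPM + 1) without the 3 libraries, also added after seeing the data, the ARID5B difference was 0.14. The median relative effective length of ARID5A was 0.797 with reference features of at least 100 counts, against 0.915. The cause of these moves was not tested.

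Leaving out each library in turn gave, for ARID5A, -3 to 0.68 for FLAG over IgG in medium, -2.64 to 1.03 for its change with IL-17, -1.49 to 0.55 for IL-17 over medium in IgG and -3.11 to 0.23 in FLAG. For ARID5B it gave -0.32 to 0.35, 0.11 to 0.91, -0.64 to 0.1 and -0.24 to 0.61 in the same order. Same-numbered libraries of different groups had deviations that correlated at -0.26 to 0.42 (median 0.03), above 0.1 in 8 of 18 pairs. For differently numbered libraries the range was -0.46 to 0.42 (median -0.03), above 0.1 in 11 of 36 pairs. The numbers were not taken to pair the samples, and the difference between these sets of pairs was not tested. With the replicate block, ARID5A had -1.23 and -1.54 for FLAG over IgG in medium and with IL-17, -0.31 for the change, and -0.91 and -1.22 for IL-17 over medium in IgG and in FLAG, and no call of either gene changed. Depth limited ARID5B in the shallowest library, with 15 counts.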
